A study of Mus musculus with 16 samples.

Results

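The 9 genes described here, of 56953 in the count table, encode proteins that sense or answer mechanical stress at the sarcomere of heart muscle. They are Ankrd1, Ankrd23, Xirp1, Xirp2, Csrp3, Rcan1, Tnfrsf12a, Fhl1 and Fhl2. They are taken by name, and no measured value enters the rule, though earlier results of these data were known when the list was drawn up. RNA came from the left ventricles of 16 mice of the Bl6J background, males and females. They were divided by genotype and virus into 4 groups, 4 mice to a group. WT Ctr and WT Tnpo3 were wild type. P635L Ctr and P635L Tnpo3 were homozygous for P635L, a missense mutation of RBM20, the splicing factor of the heart that acts on titin and other muscle transcripts. At 4 weeks of age all mice, the controls included, received 1e12 vector genomes of AAV9 by the tail vein, so no group was free of virus. The Tnpo3 groups received a vector carrying Tnpo3, the gene of a receptor that carries proteins such as RBM20 into the nucleus. The Ctr groups received a vector with the CAG promoter, a broadly active one, driving eGFP together with the recombinase iCre. The harvest followed after 12 weeks, when the mice were 16 weeks old. The tissue is a mixture of cell types, and fewer cells of a type cannot be told apart from less RNA per cell.

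The sarcomere carries force and also senses it. Titin runs from the Z-disc to the M-band as a spring. Its N2A segment binds the muscle ankyrin repeat proteins Ankrd1 (CARP) and Ankrd23 (DARP), which are induced by stretch and are found both there and in the nucleus. At the Z-disc, where actin filaments are anchored, Csrp3 (muscle LIM protein) works with telethonin in stretch sensing and in holding calcineurin. The FHL-family LIM proteins Fhl1 and Fhl2 bind titin and signalling kinases. Xirp1 and Xirp2 are Xin actin-binding proteins of the intercalated disc and of sites where myofibrils are damaged and repaired. Rcan1 is a target and feedback inhibitor of the phosphatase calcineurin. Tnfrsf12a encodes Fn14, the receptor of the cytokine TWEAK.

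Library totals lay between 28493249 and 85922669 counts. Tnpo3 was between 231 and 723 CPM (counts scaled to library size with TMM factors) in the libraries with the Tnpo3 virus and between 41.6 and 49.4 CPM in those with the control virus. The gene ENSMUSG00000119584 held 19.96% to 22.7% of the counts in WT Ctr replicates 2 and 4 and WT Tnpo3 replicate 4, and at most 5.30% elsewhere. Xist was at 211 to 587 CPM in WT Ctr replicate 4 and WT Tnpo3 replicates 2 and 4. In all other libraries it was at most 2.39 CPM, so the 3 libraries named stood apart and 0 of 8 P635L libraries did. High Xist, read as a mark of females, was thus confined to WT mice. By this measure, comparisons of P635L with WT are not balanced in sex. All 6 cardiomyocyte markers were detected in every library, with a summed level of 40720 to 67260 CPM. Of the 5 atrial markers, Sln had at most 25 counts, Myl7 at most 47 and Bmp10 at most 9 in any library, Myl4 had 69 to 817, and Nppa, which stressed ventricles also express, had 5098 to 772498. All 9 genes passed the filter on low counts.

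Levels between genes were compared per length of exon, in RPKM (here CPM divided by the exon length in kilobases). In WT Ctr the order was Fhl2 at 876 ± 181, Csrp3 at 720 ± 157 and Ankrd1 at 267 ± 100 RPKM (SD, n = 4 each). The spreads of Fhl2 and Csrp3 overlapped. Rcan1, Xirp2, Xirp1, Tnfrsf12a and Fhl1 followed, with means of 30.2, 28.6, 28.2, 26.5 and 20.7 RPKM, and these neighbours did not differ beyond their spread. Ankrd23 was lowest at 7.16 ± 1.97 RPKM (SD, n = 4). In P635L Ctr the order at the top differed: Ankrd1, at 1360 ± 137 RPKM, stood above Csrp3 at 945 ± 13.6 RPKM and Fhl2 at 928 ± 85.8 RPKM (SD, n = 4 each).

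**Figure D1:**
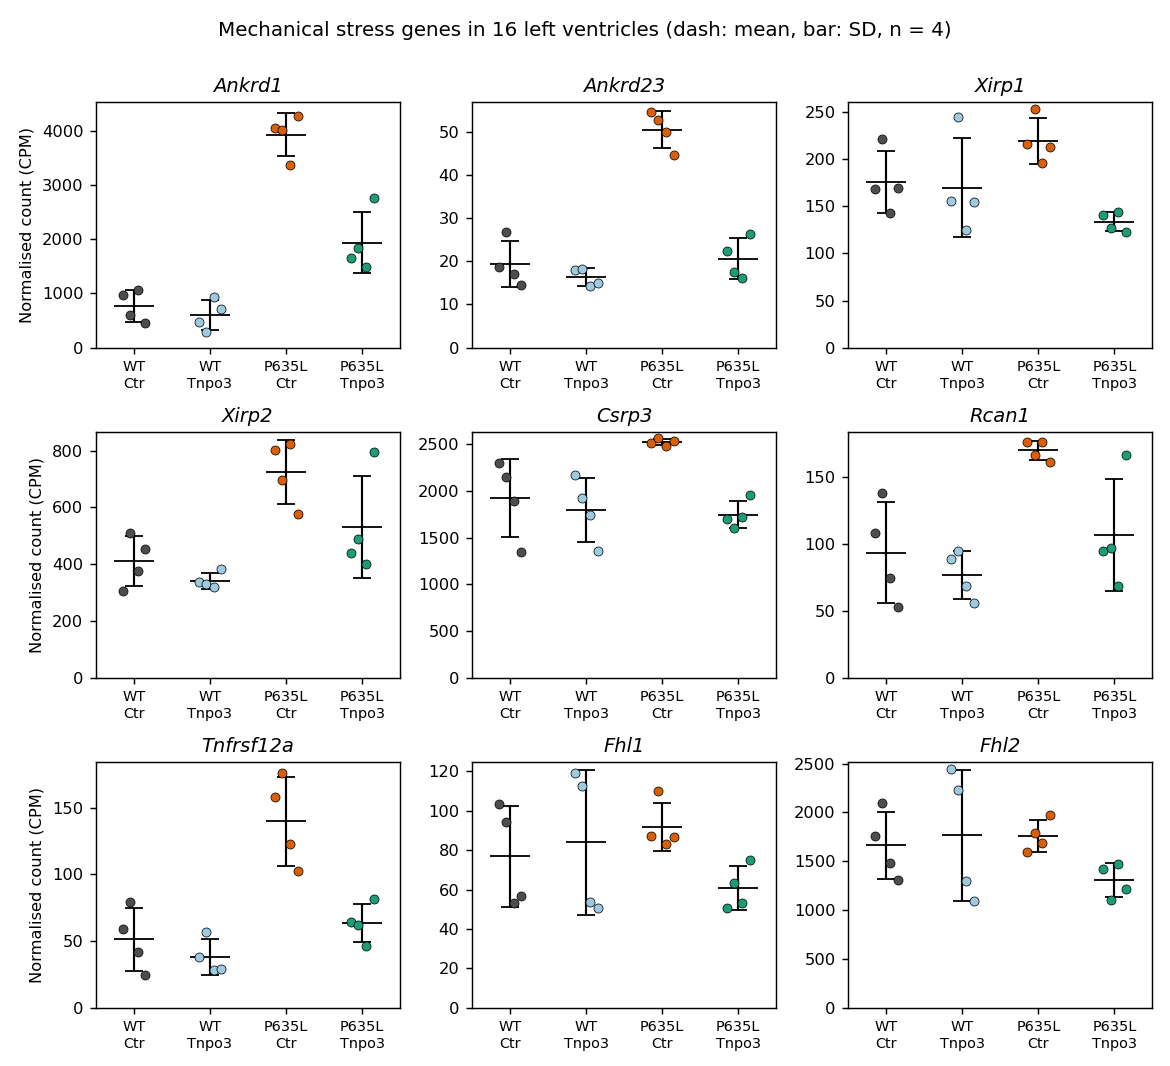
Normalised counts (CPM, linear axes from 0) of the 9 genes in each of 16 left ventricles, by group. Dots are libraries, dashes means and bars SD (n = 4). Ankrd1 lay between 3359 and 4277 CPM in P635L Ctr, above all libraries of the other groups, and between 1495 and 2755 CPM in P635L Tnpo3.

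The first comparison, P635L Ctr against WT Ctr, asks what the mutation did to these genes under control virus. Ankrd1, Ankrd23, Tnfrsf12a, Rcan1 and Xirp2 rose in the mutant hearts, by 1.76 to 5.09 times, and none fell. Xirp1, Csrp3, Fhl1 and Fhl2 did not pass the test. So 5 of 9 were called higher at an edgeR adjusted p under 0.05, where 14.2% of all genes tested were called in either direction, 7.07% higher and 7.14% lower. The median log2 fold change was 0.82 over the 9 genes and -0.05 over all 18662 genes tested. In 6 of the 9 genes the libraries of the 2 groups did not overlap, which was so for 19.1% of all genes. Without the 3 libraries with high Xist the count was 4, where 15.5% of all genes were called. All comparisons of counts below come from the same edgeR model over the 16 libraries.

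Both titin-binding ankyrin proteins rose. Ankrd1 (ENSMUSG00000024803, chromosome 19, 36089361 to 36097499, minus strand, GRCm39) was at 968, 604, 1060 and 453 CPM in the 4 WT Ctr libraries and at 4053, 4016, 3359 and 4277 CPM in the 4 of P635L Ctr. Every mutant library was more than 3 times the highest control. The log2 fold change was 2.35 (SE 0.33, edgeR adjusted p = 0.000145), or 5.09 times. Ankrd23 (ENSMUSG00000067653, chromosome 1, 36569269 to 36575964, minus strand) was at 18.8, 26.9, 17.0 and 14.6 CPM in WT Ctr. In P635L Ctr it was at 54.6, 52.6, 49.9 and 44.7 CPM. No library overlapped, and the log2 fold change was 1.39 (SE 0.18, edgeR adjusted p = 2.93e-05). Exons of Ankrd1 overlap those of ENSMUSG00000120701 on the other strand, a gene with 1671 counts over all libraries against 1489798 for Ankrd1. Their relative Ankrd2, which binds the same titin segment and is best known from skeletal muscle, was barely expressed, with 1.22 ± 1.01 CPM (SD, n = 4) in WT Ctr against 1.68 ± 0.435 CPM (SD, n = 4) in P635L Ctr, and did not pass the test (edgeR adjusted p = 0.553).

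Of the Xin proteins, Xirp2 was called and Xirp1 was not. Xirp2 (ENSMUSG00000027022, chromosome 2, 67004178 to 67356959, plus strand) was at 307, 510, 377 and 452 CPM in WT Ctr and at 801, 698, 824 and 576 CPM in P635L Ctr. The groups were apart, and Xirp2 rose by 0.82 on the log2 scale (SE 0.2, edgeR adjusted p = 0.00839). Xirp1 (ENSMUSG00000079243, chromosome 9, 119842821 to 119852664, minus strand) was at 168, 221, 143 and 169 CPM in WT Ctr and at 216, 253, 196 and 213 CPM in P635L Ctr, and the groups overlapped. Its log2 fold change was 0.32 (SE 0.17, edgeR adjusted p = 0.231). With a term for Xist in the model it was 0.54 and passed (edgeR adjusted p = 0.0343). That term set WT Ctr replicate 2, at 2.39 CPM of Xist, with the 3 libraries with high Xist. Without those 3 libraries Xirp1 did not pass.

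Signalling members rose too. Tnfrsf12a (ENSMUSG00000023905, chromosome 17, 23894419 to 23896442, minus strand) was at 59.1, 79.4, 41.8 and 24.6 CPM in WT Ctr and at 158, 176, 123 and 102 CPM in P635L Ctr. All mutant libraries lay above all controls, and the log2 fold change was 1.45 (SE 0.32, edgeR adjusted p = 0.00562). Its ligand Tnfsf12 (TWEAK) averaged 16.0 ± 2.66 CPM (SD, n = 4) in WT Ctr against 17.4 ± 1.78 CPM (SD, n = 4) in P635L Ctr and did not pass (edgeR adjusted p = 0.549). Rcan1 (ENSMUSG00000022951, chromosome 16, 92188841 to 92267755, minus strand) was at 108, 138, 74.2 and 52.8 CPM in WT Ctr and at 176, 167, 176 and 161 CPM in P635L Ctr. The mutant libraries were tightly grouped and the controls were not. Rcan1 rose by 0.86 on the log2 scale (SE 0.28), and its edgeR adjusted p of 0.0485 was near the threshold. The edgeR adjusted p was above 0.05, and the call lost, without WT Ctr replicate 1 (0.0562), 3 (0.111) or 4 (0.112). The same was so without WT Tnpo3 replicate 1 (0.0594) or 3 (0.0596) and without P635L Tnpo3 replicate 1 (0.0601). Leaving out P635L Ctr replicates 1 to 4 in turn gave 0.0842, 0.0769, 0.0897 and 0.0816. It was 0.106 with a term for Xist and 0.092 without the 3 libraries with high Xist. Without a filter it was 0.117, and without the 3 libraries rich in ENSMUSG00000119584 it was 0.0505. In the authors' deposited table from DESeq2 the adjusted p was 0.00312. Its relatives Rcan2 and Rcan3, with means of 309 ± 28.1 and 12.7 ± 1.71 CPM (SD, n = 4) in P635L Ctr, did not pass (edgeR adjusted p = 0.78 and 0.689).

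None of the 3 LIM proteins passed the test. Csrp3 (ENSMUSG00000030470, chromosome 7, 48480146 to 48497781, minus strand) was at 2300, 2154, 1892 and 1347 CPM in WT Ctr and at 2518, 2566, 2479 and 2536 CPM in P635L Ctr. The groups did not overlap, but the log2 fold change of 0.39 (SE 0.16) had an edgeR adjusted p of 0.107. Fhl1 (ENSMUSG00000023092, chromosome X, 55777147 to 55838706, plus strand) was at 104, 94.1, 53.3 and 56.7 CPM in WT Ctr and at 87.5, 110.0, 83.0 and 86.7 CPM in P635L Ctr, and the groups overlapped (log2 fold change 0.26, edgeR adjusted p = 0.583). Fhl2 (ENSMUSG00000008136, chromosome 1, 43162234 to 43236144, minus strand) was at 1762, 2094, 1483 and 1308 CPM in WT Ctr and at 1592, 1794, 1683 and 1970 CPM in P635L Ctr. Exons of ENSMUSG00000120601 overlap it, with 2892 counts in all against 1118377. The groups overlapped as well (log2 fold change 0.08, 95% interval -0.37 to 0.54, edgeR adjusted p = 0.84). Among relatives, Csrp2, a LIM protein of smooth muscle and fibroblasts, was called higher (log2 fold change 1.01, edgeR adjusted p = 9.88e-05), at 22.02 ± 3.88 CPM in WT Ctr against 44.4 ± 3.86 CPM in P635L Ctr (SD, n = 4). Csrp1 (-0.02) and Fhl3 (-0.36, edgeR adjusted p = 0.0625) did not pass. Fhl4 had at most 47 counts and Fhl5 at most 3, and Fhl5 was not tested.

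**Figure D2:**
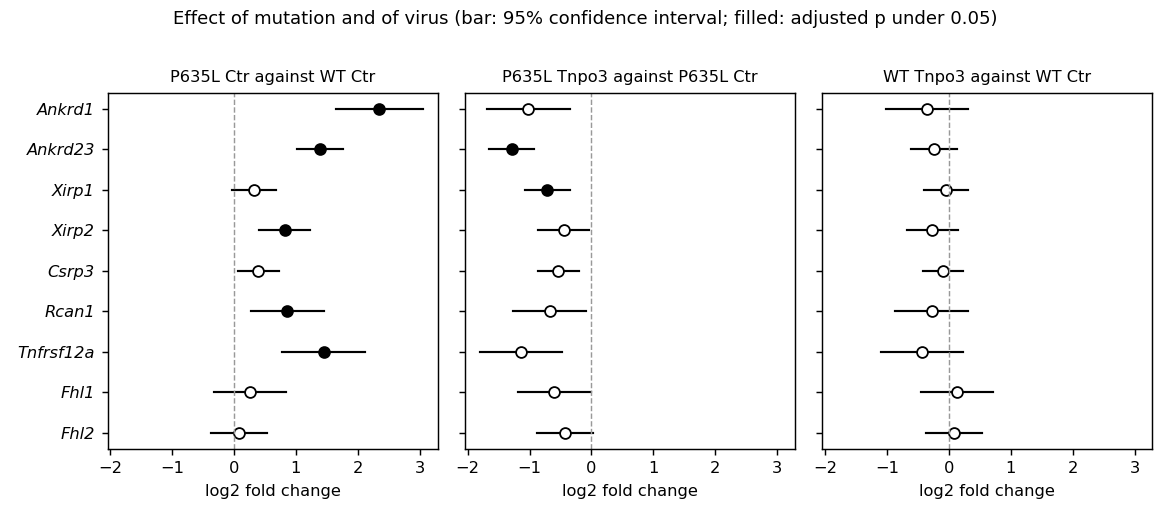
Log2 fold changes of the 9 genes in 3 comparisons, with 95% confidence intervals from the edgeR model. Filled dots have an adjusted p under 0.05. With the mutation 5 genes are filled, with the Tnpo3 virus in mutant hearts 2, and with the Tnpo3 virus in WT hearts 0.

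Markers of some other cells moved with the mutation, where 14.2% of all genes were called in either direction. None of the 6 endothelial, 5 mural, 6 lymphocyte and 5 erythroid markers was called. Of the 4 adipocyte markers 2 were tested, and neither was called. The 7 fibroblast markers summed to 879 to 1337 CPM in WT Ctr and 1455 to 2151 CPM in P635L Ctr, and 6 of 7 were called, all higher. The 6 cardiomyocyte markers summed to 57130 to 67260 CPM and 41180 to 44930 CPM, and 2 of 6 were called, Myh6 and Tnni3, both lower. Of the 6 skeletal muscle markers, summing to 4.70 to 6.44 and 24.8 to 36.8 CPM, Tnnt3 and Tnni2 were called, while Myh4 had at most 2 counts and Myh1 at most 14. The 5 atrial markers summed to 151 to 410 CPM in WT Ctr and 5139 to 9804 CPM in P635L Ctr. Of these Nppa was called (log2 fold change 4.84, edgeR adjusted p = 1.85e-05) and Myl4 was not (edgeR adjusted p = 0.279). The 6 macrophage markers summed to 282 to 896 and 261 to 378 CPM, and Cd68 alone was called, lower (log2 fold change -0.88, edgeR adjusted p = 0.0476). The part of all these markers in the 5 calls was not tested.

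Promoter sequence of the members is shown because 5 of the 9 rose together. RefSeq entries (GRCm38.p6) matched 8 of the 9 genes, with 13 start sites among them. The 250 bases before each start were searched on both strands for MCAT (GGAATG, the element of TEAD factors), the NFAT core (GGAAA), AP-1 (TGANTCA) and the MEF2 and CArG boxes, the last being the element of serum response factor. Capitals mark the matches as read on the gene's strand, and no 2 matches shared a base. The windows of 4 genes that rose most and of Xirp2 follow, with that of Fhl2, which did not pass, for contrast.
Ankrd1 (chr19:36119845-36120094, minus strand): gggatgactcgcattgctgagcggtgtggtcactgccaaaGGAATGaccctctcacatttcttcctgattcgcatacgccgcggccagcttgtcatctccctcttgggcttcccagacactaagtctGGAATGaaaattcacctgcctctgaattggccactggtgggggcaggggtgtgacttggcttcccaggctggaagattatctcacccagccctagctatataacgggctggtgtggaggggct
Ankrd23, second start (chr1:36535740-36535989, minus strand): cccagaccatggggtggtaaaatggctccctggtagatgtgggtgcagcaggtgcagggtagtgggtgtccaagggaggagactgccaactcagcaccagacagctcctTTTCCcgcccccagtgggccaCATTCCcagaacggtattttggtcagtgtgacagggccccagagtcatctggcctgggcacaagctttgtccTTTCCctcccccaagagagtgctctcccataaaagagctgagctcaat
Tnfrsf12a (chr17:23677450-23677699, minus strand): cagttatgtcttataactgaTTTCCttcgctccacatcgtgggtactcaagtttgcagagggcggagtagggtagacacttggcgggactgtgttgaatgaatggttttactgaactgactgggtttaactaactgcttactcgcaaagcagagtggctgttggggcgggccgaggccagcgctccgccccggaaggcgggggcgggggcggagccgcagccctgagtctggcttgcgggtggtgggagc
Rcan1, second start, inside the gene (chr16:92400079-92400328, minus strand): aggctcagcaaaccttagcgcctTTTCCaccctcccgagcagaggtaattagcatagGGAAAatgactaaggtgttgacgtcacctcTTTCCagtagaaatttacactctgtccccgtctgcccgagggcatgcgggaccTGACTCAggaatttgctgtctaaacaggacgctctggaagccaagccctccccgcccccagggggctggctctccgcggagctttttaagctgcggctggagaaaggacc
Xirp2 (chr2:67445752-67446001, plus strand): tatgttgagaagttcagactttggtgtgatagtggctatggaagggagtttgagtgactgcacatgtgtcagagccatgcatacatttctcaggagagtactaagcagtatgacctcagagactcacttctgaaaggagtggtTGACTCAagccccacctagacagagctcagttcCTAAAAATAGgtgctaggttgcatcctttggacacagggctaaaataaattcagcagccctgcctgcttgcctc
Fhl2, first start (chr1:43196762-43197011, minus strand): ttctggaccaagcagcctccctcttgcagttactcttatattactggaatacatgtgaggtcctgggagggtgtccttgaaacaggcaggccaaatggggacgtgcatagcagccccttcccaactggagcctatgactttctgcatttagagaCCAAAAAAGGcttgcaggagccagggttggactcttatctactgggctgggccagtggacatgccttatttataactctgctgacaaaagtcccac

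Ankrd1 held MCAT at 2 places, 210 to 205 and 123 to 118 bases before the start, and Ankrd23 held 1. MCAT was in 2 of the 13 member windows and in 12.6% of 32851 promoter windows of the same length. The second Rcan1 window, the one shown, held 3 NFAT cores and 1 AP-1 element, and the first held no match. NFAT cores were in 6 of 13 member windows and in 55.6% of all windows. AP-1 was in 2 of 13, those of Rcan1 and Xirp2 shown, and in 6.75% of all windows. The Xirp2 window alone of the 13 had a MEF2 box, found in 0.508% of all windows. CArG boxes, in 1.47% of windows, were in Fhl1 and in both windows of Fhl2, 3 of the 13 member windows. These are letters in a window, and binding was not measured.

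The second comparison, P635L Tnpo3 against P635L Ctr, sets the Tnpo3 virus against the control virus in mutant hearts. The 2 vectors differ in cargo, and an effect of Tnpo3 apart from that of eGFP and iCre was not tested. Ankrd23 and Xirp1 fell, and the other 7 had lower means with adjusted p above 0.05. So 2 of 9 were called, both lower, against 3.88% of all genes called in either direction, 2.25% lower and 1.63% higher. The median log2 fold change was -0.67 over the 9 genes and 0.01 over all genes. All 9 were negative, and 8 had an unadjusted p under 0.05, as had 3426 of all 18662 genes. In 7 the groups did not overlap, as in 20.4% of all genes. This comparison shares the P635L Ctr libraries with the first, so the directions of both are not independent.

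Ankrd23 was at 22.4, 17.6, 16.2 and 26.4 CPM in P635L Tnpo3, all below the lowest P635L Ctr library at 44.7 CPM. It fell by 1.29 on the log2 scale (SE 0.17, edgeR adjusted p = 0.000413), and was 2.44 times lower. It then lay within the range of WT Ctr, 14.6 to 26.9 CPM. Xirp1 was at 140, 127, 144 and 123 CPM, below the P635L Ctr range of 196 to 253 CPM. It fell by 0.72 on the log2 scale (SE 0.17, edgeR adjusted p = 0.0262). The adjusted p of Xirp1 was 0.0581, 0.0961 and 0.0658 without P635L Ctr replicates 1, 2 and 4, and 0.061, 0.0788, 0.0621 and 0.067 without P635L Tnpo3 replicates 1 to 4. Xirp1 was thus called lower with the virus without having been called higher with the mutation.

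Ankrd1 was at 1655, 1844, 1495 and 2755 CPM in P635L Tnpo3, all below P635L Ctr and all above WT Ctr. Its log2 fold change was -1.02 (SE 0.32, 95% interval -1.69 to -0.35, edgeR adjusted p = 0.0855). It passed without WT Tnpo3 replicate 2 (0.0463). Tnfrsf12a was at 64.4, 61.7, 46.7 and 81.6 CPM, below the P635L Ctr range of 102 to 176 CPM. Its log2 fold change was -1.14 (SE 0.31, edgeR adjusted p = 0.0542), and it passed without WT Ctr replicate 2 (0.0344), WT Ctr replicate 4 (0.0201) or WT Tnpo3 replicate 2 (0.0393). Csrp3 was at 1695, 1608, 1725 and 1952 CPM against 2479 to 2566 CPM. Its log2 fold change was -0.53 (SE 0.16, edgeR adjusted p = 0.0667), and it passed without WT Ctr replicate 4 (0.0246) or WT Tnpo3 replicate 4 (0.0327). These 3 genes had groups that did not overlap and adjusted p close to the threshold.

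Xirp2 and Rcan1 did overlap, through a single library. In P635L Tnpo3 Xirp2 was at 440, 489 and 401 CPM in replicates 1 to 3 and at 795 CPM in replicate 4. Rcan1 was at 94.5, 96.9, 68.3 and 166 CPM in the same order. Replicate 4 also had the highest Ankrd1, Ankrd23, Csrp3, Tnfrsf12a and Fhl1 of its group. Its Xirp1 was the lowest of the group, at 123 CPM, and its Fhl2, at 1218 CPM, was neither highest nor lowest. Its Tnpo3 was the lowest, at 234 CPM against 359, 723 and 543 CPM. Over the group the log2 fold changes were -0.45 for Xirp2 (edgeR adjusted p = 0.222) and -0.67 for Rcan1 (edgeR adjusted p = 0.203). Without replicate 4, Xirp2 was at -0.71 and passed (edgeR adjusted p = 0.0257). Over these 4 mice no relation between Tnpo3 and any gene was tested.

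Fhl1 was at 50.8, 63.4, 53.2 and 75.2 CPM and Fhl2 at 1425, 1107, 1473 and 1218 CPM in P635L Tnpo3. Neither overlapped with P635L Ctr. Their log2 fold changes of -0.60 (95% interval -1.18 to -0.01) and -0.43 (95% interval -0.88 to 0.02) had edgeR adjusted p of 0.26 and 0.298. The count of calls depended on the fit: 7 of 9 genes passed when only these 2 groups were fitted, 5 of 9 with DESeq2, 5 of 9 without the 3 libraries with high Xist, and 4 of 9 without the 3 rich in ENSMUSG00000119584. The share of all genes called rose with it, from 3.88% to 15.9%, 7.5%, 6.6% and 7.59% in the same order. The WT groups, which share the estimate of the spread, varied more in some genes: the SD of Fhl1 was 25.7 and 36.8 CPM in WT Ctr and WT Tnpo3, and 12.3 and 11.2 CPM in P635L Ctr and P635L Tnpo3 (n = 4 each). The fibroblast markers fell here as well, to 979 to 1541 CPM summed, with 5 of 7 called. Their part in these differences was not tested.

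**Figure D3:**
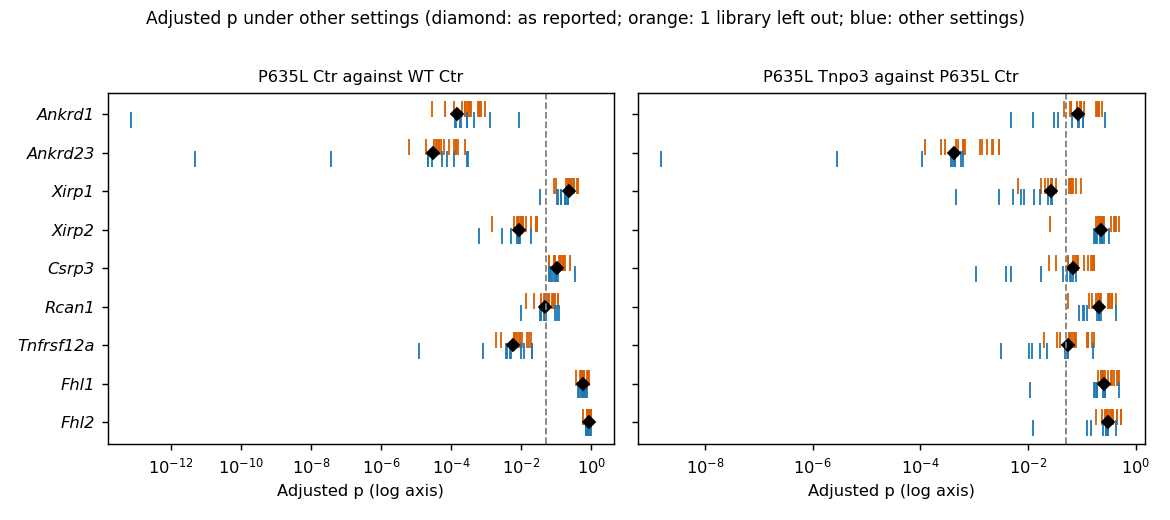
Adjusted p (log axis) of each gene for the mutation (left) and for the Tnpo3 virus in mutant hearts (right), under the fit reported (diamonds), with 1 library left out (orange) and under other settings (blue). The dashed line is 0.05. Ankrd23 stays left of the line throughout both panels. On the right Xirp1, Ankrd1, Csrp3 and Tnfrsf12a lie on both sides of it, as do Xirp2, Fhl1 and Fhl2 through 1 alternative each.

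In WT hearts the Tnpo3 virus gave no call. By edgeR 0 of 9 genes passed, none had an unadjusted p under 0.05, and DESeq2 called 0 as well. The 2 groups overlapped in all 9, while 1.09% of all genes had no overlap. Of all genes 0.00536% were called, a single gene (Tnpo3), and 597 had an unadjusted p under 0.05. The log2 fold changes ran from -0.43 for Tnfrsf12a (95% interval -1.10 to 0.23) to 0.13 for Fhl1 (95% interval -0.46 to 0.71). A drop of Ankrd1 as large as in mutant hearts lies just within its interval (-0.36, 95% interval -1.02 to 0.31). The interaction of virus and genotype tests whether the virus acted differently in the 2 genotypes. It was negative for all 9 genes and passed for 0 of 9 by edgeR. Of all genes 0.504% were called in either direction (0.295% higher, 0.209% lower). At an unadjusted p under 0.05 were 2 of the 9, and 2321 of all 18662 genes. The 2 were Ankrd23 at -1.05 (SE 0.25, edgeR adjusted p = 0.0649) and Xirp1 at -0.67 (SE 0.24, edgeR adjusted p = 0.262). DESeq2 called Ankrd23 (adjusted p = 0.00634). So did edgeR without WT Ctr replicate 2 (0.0143), WT Tnpo3 replicate 4 (0.0489) or P635L Tnpo3 replicate 4 (0.0287).

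What remained in treated mutant hearts was read against both WT groups. Ankrd1 alone stayed called, at 1.33 on the log2 scale against WT Ctr (SE 0.32, edgeR adjusted p = 0.032) and at 1.69 against WT Tnpo3 (SE 0.32, edgeR adjusted p = 0.00748). So 1 of 9 passed in each, where 3.07% and 3.72% of all genes did. Against WT Ctr 1.49% were called higher and 1.58% lower (278 and 295 genes, or 350 and 246 with upper-quartile scaling). Against WT Tnpo3 1.72% were called higher. The call against WT Ctr was lost without WT Ctr replicate 2 (0.0968) or 4 (0.084), without P635L Tnpo3 replicate 2 (0.065) or 4 (0.128), and without the 3 libraries rich in ENSMUSG00000119584 (0.266). Xirp2 was at 0.37 against WT Ctr (edgeR adjusted p = 0.329) and 0.63 against WT Tnpo3 (edgeR adjusted p = 0.0766). Tnfrsf12a was at 0.31 (95% interval -0.35 to 0.97) and Rcan1 at 0.19 (95% interval -0.40 to 0.78) against WT Ctr. These intervals leave room for a remaining rise of more than 1.5 times. Xirp1, Csrp3, Fhl1 and Fhl2 had negative values against both WT groups, -0.04 to -0.47, and none passed.

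**Figure D4:**
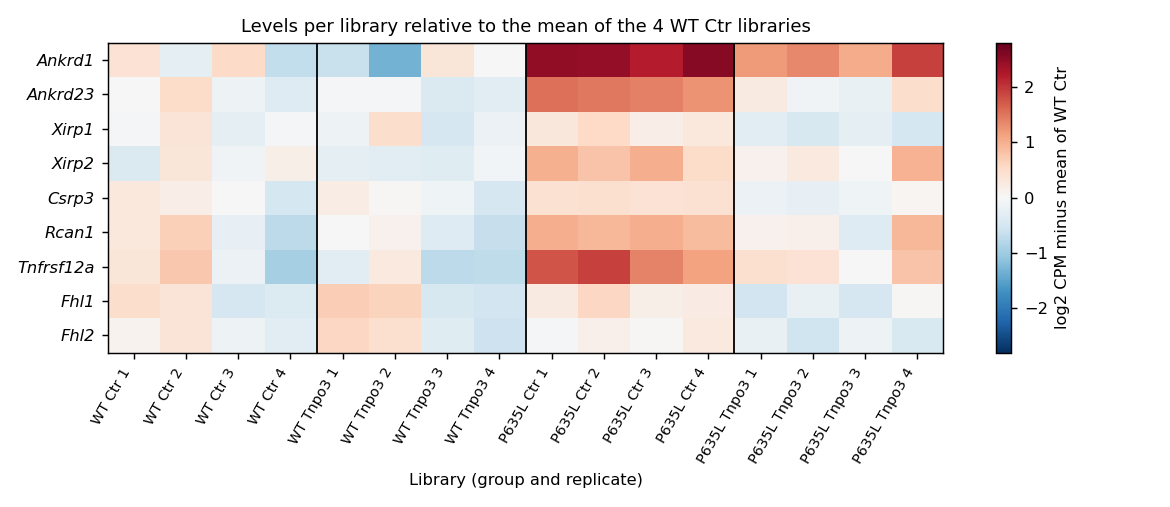
Log2 CPM of each gene in each library minus the mean of the 4 WT Ctr libraries (red higher, blue lower). P635L Ctr is red in the rows of Ankrd1, Ankrd23, Xirp2, Rcan1 and Tnfrsf12a; P635L Tnpo3 replicate 4 is the reddest of its group for Ankrd1, Ankrd23, Xirp2, Rcan1 and Tnfrsf12a.

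Likeness of pattern was measured as the root-mean-square difference of centred log2 CPM over the 16 libraries, among 9204 genes whose mean log2 CPM was 3 or more. Nearest to Ankrd1 were Mmp23 (0.40), Itgbl1 (0.45) and Shisa4 (0.46), where the median gene was at 1.24. Mmp23, a membrane metalloprotease, went from 13.2 ± 1.67 CPM in WT Ctr to 69.0 ± 8.77 CPM in P635L Ctr and 31.5 ± 9.32 CPM in P635L Tnpo3 (SD, n = 4 each). Tnfrsf12a was nearest to Abra (0.30), Hectd2os (0.34) and Gsg1l (0.35). Abra, an actin-binding protein of striated muscle, was at 39.2 ± 12.3, 129 ± 18.3 and 62.5 ± 16.7 CPM in WT Ctr, P635L Ctr and P635L Tnpo3 (SD, n = 4 each). Ankrd23 was nearest to Enah (0.22), Hbegf (0.22) and Hectd2os (0.24). Enah, an actin regulator of the intercalated disc, was at 98.6 ± 10.7, 258 ± 12.4 and 129 ± 31.2 CPM in the same groups (SD, n = 4 each). Among the members, Fhl1 and Fhl2 (0.26) were closest to each other, and Ankrd1 and Fhl2 (1.31) the farthest apart. These are descriptions over libraries that share their groups.

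Other genes of the same pathways were counted from lists, whose counts read against 14.2% of all genes called with the mutation (7.07% higher, 7.14% lower) and 3.88% with the virus in mutant hearts. Of 10 titin N2A and titin kinase partners, 1 rose and 1 fell with the mutation. Sqstm1, an autophagy adaptor bound to the titin kinase complex, rose by 0.59 on the log2 scale (edgeR adjusted p = 0.00387). Capn3, a protease of the N2A segment at very low level, had -1.46 (edgeR adjusted p = 0.0388). Trim63 (MuRF1), a ubiquitin ligase at the M-band, fell by 0.54 with the virus in mutant hearts (edgeR adjusted p = 0.0121). Of 9 Z-disc genes, Tcap (telethonin) fell by 0.64 (edgeR adjusted p = 0.0323) and Myoz2 (calsarcin), which tethers calcineurin, fell by 0.52 (edgeR adjusted p = 0.0211). The low-expressed Myoz1 rose by 1.1 (edgeR adjusted p = 0.0481). Of 12 calcineurin and NFAT genes only Ppp3r1, the regulatory subunit of calcineurin, was called with the mutation, and it fell by 0.59 (edgeR adjusted p = 0.0117). None of these 12 was called higher with the mutation, while Rcan1 was.

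The clearest partner was in the list of filamin C and Bag3 turnover, the chaperone route that clears strained filamin. Synpo2l, an actin-binding Z-disc protein, averaged 139 ± 16.0 CPM in WT Ctr, 440 ± 73.3 CPM in P635L Ctr and 143 ± 21.5 CPM in P635L Tnpo3 (SD, n = 4 each). It rose by 1.66 (edgeR adjusted p = 2.87e-07), fell by 1.62 with the virus (edgeR adjusted p = 2.82e-06), and its interaction was -1.35 (edgeR adjusted p = 0.00274). Flnc itself fell by 0.57 with the virus in mutant hearts (edgeR adjusted p = 0.0497). The other 8 genes of this list were not called with the mutation. Of 12 partners of the Xin proteins at the intercalated disc and costamere, Nrap and Ctnnb1 rose with the mutation, by 0.48 and 0.38 (edgeR adjusted p = 0.0143 and 0.0337). Both fell with the virus in mutant hearts, by 0.78 and 0.56 (edgeR adjusted p = 0.00151 and 0.0112). Nrap is an actin scaffold of the disc and Ctnnb1 is beta-catenin, a ligand of Xin proteins.

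Genes of load-responsive transcription, factors as well as targets, were counted next. Of 8 early response genes, 5 rose with the mutation: Egr1 by 2.32, Atf3 by 1.61, Myc by 1.40, Junb by 0.97 and Btg2 by 0.86 on the log2 scale. Only Atf3 fell with the virus in mutant hearts (-1.30, edgeR adjusted p = 0.046), and its libraries overlapped in both comparisons (4.32 to 9.70 CPM in WT Ctr, 8.37 to 34.1 CPM in P635L Ctr and 6.37 to 13.0 CPM in P635L Tnpo3). With the mutation Egr1 (10.6 to 38.6 CPM in WT Ctr, 35.5 to 161 CPM in P635L Ctr), Junb and Btg2 overlapped too, and Myc did not. The list of 10 YAP and TEAD genes held Yap1, Wwtr1, Tead1 and Tead4 themselves beside targets. In it 2 rose, Ccn2 by 2.76 (edgeR adjusted p = 0.000538) and Ccn1 by 1.11 (edgeR adjusted p = 0.00181), matricellular proteins that fibroblasts also make. The list of 12 SRF and MRTF genes held Srf, Mrtfa and Mrtfb themselves beside targets. Of these 12, 0 were called by edgeR with the mutation or with the virus in either genotype. Of 8 TWEAK genes, Traf3, a signalling adaptor, rose by 0.43 (edgeR adjusted p = 0.0405). The median log2 fold change was 1.13 in the early response list, 0.13 in the YAP and TEAD list, -0.04 in the SRF and MRTF list and 0.12 in the TWEAK list, beside -0.05 over all genes.

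In P635L Tnpo3 against WT Tnpo3, where 3.72% of all genes were called, the lists held few calls. Acta2, smooth muscle actin and an SRF target, fell by 0.88 on the log2 scale (edgeR adjusted p = 0.0121), and Nfatc3, an NFAT factor, fell by 0.62 (edgeR adjusted p = 0.0024). Each was the single call of 12 genes in its list. Of the 12 Xin protein partners, Tjp1 (ZO-1, a junction scaffold) fell by 0.57 (edgeR adjusted p = 0.0324) and Pxn (paxillin, a focal adhesion adaptor) rose by 0.55 (edgeR adjusted p = 0.0399). Of the relatives, Csrp2 was higher by 0.57 (edgeR adjusted p = 0.0343), and Ankrd2, at 0.717 ± 0.269 CPM in WT Tnpo3 and 2.802 ± 1.24 CPM in P635L Tnpo3 (SD, n = 4), by 1.96 (edgeR adjusted p = 0.0354).

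Splicing was examined because RBM20 is a splicing factor. The authors' rMATS tables compare each other group with WT Ctr, and list 54 events in the members for P635L Ctr, 52 of them with at least 10 junction reads per library on average in both groups. Xirp1 had none. An event was called at an FDR under 0.05 with an inclusion difference of at least 0.1. In P635L Ctr 2 of 52 member events were called, against 2.52% of all events. In P635L Tnpo3 it was 1 of 66 (2.12% of all events) and in WT Tnpo3 1 of 40 (0.941%). No event of Ankrd1, Ankrd23, Csrp3, Rcan1, Tnfrsf12a or Fhl1 was called, and their largest absolute difference was 0.049.

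Xirp2 had an exon that was skipped more often in P635L Ctr. It lies at 67312590 to 67312727 on chromosome 2 (GRCm39), spans 138 bases (46 codons), and is coding and in frame in both annotated transcripts with the same exon and intron lengths in GENCODE M21, so skipping keeps the reading frame. It is shown in capitals, at chr2:67482246-67482383 of GRCm38, plus strand, with 12 bases of the neighbouring exon on each side.
Xirp2 cassette exon: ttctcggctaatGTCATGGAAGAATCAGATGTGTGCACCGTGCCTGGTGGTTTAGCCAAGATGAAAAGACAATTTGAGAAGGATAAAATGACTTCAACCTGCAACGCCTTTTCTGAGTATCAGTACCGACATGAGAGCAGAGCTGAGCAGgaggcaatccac
Read by listed position, inclusion was 0.818, 0.86, 1.0 and 0.904 in WT Ctr and 0.867, 0.614, 0.676 and 0.634 in P635L Ctr. So 3 of the 4 mutant libraries lay below all controls and 1 lay among them. The means were 0.896 ± 0.078 and 0.698 ± 0.116 (SD, n = 4 each), a difference of -0.198 (rMATS FDR = 0.00153). Support was uneven, from 10 junction reads in WT Ctr position 1 to 176 in P635L Ctr position 3. In WT Tnpo3 inclusion was 0.931 to 1.0, with a difference of 0.079 that was below the size threshold.

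In P635L Tnpo3 the same exon was included at 0.633, 0.944, 0.963 and 0.769, so that it overlapped with both WT Ctr and P635L Ctr. Its mean of 0.827 ± 0.156 (SD, n = 4) was 0.13 above P635L Ctr, with a two-sided exact permutation p of 0.229 (adjusted 0.344 over 3 events), where 0.0286 is the smallest that 4 against 4 allow. Against WT Ctr it was not called (difference -0.068, rMATS FDR = 1.0). A second event pairs the same exon with a farther downstream exon, at 67337391 to 67337524. There it was fully included in WT Ctr, and at 0.923, 0.92, 0.607 and 1.0 in P635L Tnpo3, a difference of -0.137 (rMATS FDR = 0.000831). That call rests on listed position 3, without which the difference is -0.05. In P635L Ctr the second event was at 0.953 to 1.0 and was not called.

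Fhl2 had a called exon of 179 bases, at 43192236 to 43192414 on chromosome 1 (GRCm39). Inclusion was 1.0, 0.6, 1.0 and 0.882 in WT Ctr and 0.986 to 1.0 in P635L Ctr, a difference of 0.126 (rMATS FDR = 0.0157). In WT Tnpo3 it was 0.931 to 1.0, a difference of 0.112 (rMATS FDR = 0.0488). Both calls share WT Ctr and rest on its listed position 2, with 21 inclusion and 7 skipping reads. Without that library the differences were 0.04 and 0.02. In P635L Tnpo3 inclusion was 0.857 to 1.0 and was not called.

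**Figure D5:**
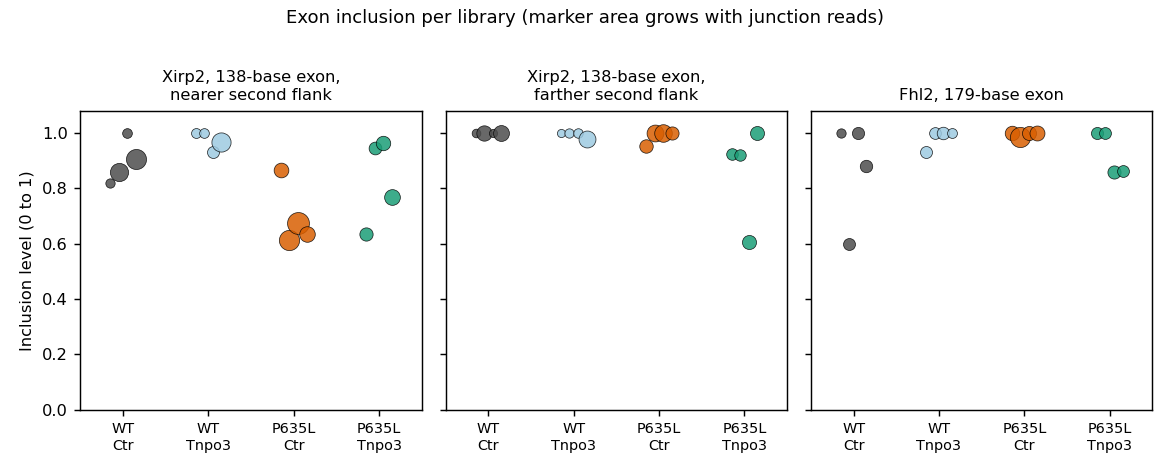
Inclusion level (0 to 1) per library of the called exons, by group; each dot is a library and larger dots have more junction reads. For the first Xirp2 event 3 of 4 P635L Ctr libraries lie between 0.614 and 0.676, below all WT Ctr libraries, and P635L Tnpo3 runs from 0.633 to 0.963.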

How the data were processed

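Left-ventricular RNA of 16 mice, 4 in each of 4 groups, was made into poly(A)-selected directional libraries, per the labels. Reads were aligned with STAR 2.7.9a to GRCm39 and counted per gene with featureCounts 2.0.6, per the submitters' processing notes; the strand setting and the annotation are not given in the sources used here. The authors deposited raw counts per gene and a gene length, DESeq2 tables whose log2 fold changes and p-values compare WT Ctr with each other group, and rMATS tables of junction reads, inclusion levels (from 0 to 1), and p-values with FDR. Signs were turned so that differences read other group minus WT Ctr. The order of libraries inside the rMATS tables is not stated, so they are called by listed position.

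Counts were tested with edgeR 4.0.16 in R 4.3.3 (TMM scaling, filterByExpr, robust quasi-likelihood fit of all 16 libraries by group, 12 residual degrees of freedom), for 5 contrasts and the interaction. Benjamini-Hochberg adjustment ran over 18662 genes, and a gene was called at an adjusted p under 0.05. No label ties mice to cages or litters, and p-values measure the spread between the libraries of these mice. CPM uses TMM factors, and RPKM divides by the deposited gene length. The fit was tested on simulated data. DESeq2 1.42.0 was an alternative, beside other scalings, no filter, a replicate block, the 2 groups alone, libraries left out and a term for Xist. The Xist term marked WT Ctr replicate 2, at only 2.39 CPM of Xist, together with the 3 libraries with high Xist. Leaving out the 3 libraries with high Xist was chosen after seeing the data. Totals of 28493249 to 85922669 counts per library left the members with 455 to 380453 counts each.

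Symbols came from the splicing tables for 11276 identifiers and from a name table for 40786, and 4891 kept their identifier. Promoters are from RefSeq (GRCm38.p6) and the exon sequence from GENCODE M21 (GRCm38), not the build of the counts.

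The members and gene lists were chosen with earlier results of these data known. All members and their family relatives are named. From each list the called genes with the largest change are named, up to 3 for the mutation and 2 elsewhere, if their mean log2 CPM reached 1. Capn3, Myoz1, Junb, Btg2 and the markers Nppa and Cd68 fall outside that rule and were chosen after their values were seen.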

Additional observations from a re-analysis of the deposited data

Results flagged for a closer look

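Within groups of 4, a library was singled out when its gap to the nearest other, as a share of the group's range, exceeded Dixon's 95% critical value. Of 48 groups tested 5 were picked out. Chance picks out about 1 in 20 groups of continuous values. That rate does not hold where 3 libraries are at 1.0, since any lower value is then picked out. For Fhl1, P635L Ctr replicate 2 stood highest at 110.0 CPM, with the other 3 between 83.0 and 87.5 CPM. The other 4 cases are inclusion levels where 3 libraries were at 1.0 and a single one was lower. These were 0.953 at listed position 1 of P635L Ctr and 0.977 at position 4 of WT Tnpo3 for the second Xirp2 event. For the Fhl2 exon they were 0.986 at position 2 of P635L Ctr and 0.931 at position 1 of WT Tnpo3. Each of the 4 rests on 1 skipping read. Of 9 interactions of virus and genotype, 0 passed by edgeR.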

How the results depend on the processing

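Over 54 results of single members (9 genes, 5 contrasts and the interaction) and 1449 values under alternatives, 1364 kept their direction and side of the threshold, 31 lost a call, 35 gained one and 19 changed sign. The mutation's calls of Ankrd1, Ankrd23 and Tnfrsf12a held under every alternative run. The count of members called with the mutation was 5, and 3 when a log2 fold change of 1 or more in size was also required; leaving out 1 library gave 4 to 5. For the virus in mutant hearts it was 2, and 5 with DESeq2, 7 with only the 2 groups fitted, 4 without the libraries rich in ENSMUSG00000119584, 4 with the Xist term, 5 without the high-Xist libraries and 1 with the fold threshold; leaving out 1 library gave 1 to 4. P635L Tnpo3 against WT Ctr gave 1, and 0 without a filter, without the rich libraries and with the Xist term. The share of all genes called was 3.07%, 1.45%, 1.63% and 1.84% in that order. Leaving out 1 library gave 0 to 1. Against WT Tnpo3, P635L Tnpo3 gave 1, and 2 with DESeq2 and 3 without the rich libraries. The share of all genes called was 3.72%, 8.12% and 9.66% in that order. The interaction gave 0, and 1 with DESeq2, without a filter, without the rich libraries and with ENSMUSG00000119584 removed. The share of all genes called was 0.504%, 2.12%, 0.394%, 1.65% and 0.686% in that order. Leaving out 1 library gave 0 to 1. For WT Tnpo3 against WT Ctr it was 0 throughout. Over all genes the virus in mutant hearts gave 724 calls, and 1370 with DESeq2, 2846 with only the 2 groups fitted, 1482 without the rich libraries, 1282 without the high-Xist libraries and 253 with the fold threshold.

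No paired samples are named in the labels: over 24 pairs with the same replicate number, correlations of deviations ran from -0.257 to 0.552, and the own number was best in 5 of 24. With the replicate block 3 members were called for the virus in mutant hearts (Tnfrsf12a joined, log2 fold change -1.08, edgeR adjusted p = 0.0222), and the other counts stayed at 5, 0, 1, 1 and 0.

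Sign changes were all in members that were not called. Xirp1 in WT Tnpo3 against WT Ctr was 0.21 without the rich libraries, and ran from -0.24 to 0.11 leaving out 1 library. In the same contrast Csrp3 ran from -0.23 to 0.018, Rcan1 from -0.48 to 0.0013, Fhl1 from -0.083 to 0.31 and Fhl2 from -0.11 to 0.26. Fhl2 in P635L Ctr against WT Ctr ran from -0.016 to 0.24. Against WT Ctr in P635L Tnpo3, Ankrd23 ran from -0.042 to 0.32 and Rcan1 from -0.11 to 0.47, and Csrp3 against WT Tnpo3 from -0.16 to 0.058.

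With an inclusion difference of at least 0.2, 0 member events were called in any table, and with an FDR under 0.01 it was 1 for P635L Ctr and 0 for WT Tnpo3. Leaving out 1 library, the difference of the first Xirp2 event in P635L Ctr ran from -0.254 to -0.163, that of the second in P635L Tnpo3 from -0.183 to -0.0523, and that of Fhl2 from 0.0358 to 0.169 in P635L Ctr and 0.0221 to 0.155 in WT Tnpo3. Between the mutant groups they ran from 0.0843 to 0.194, -0.172 to -0.0406 and -0.0902 to -0.0425. The cause of these changes was not tested. Junction reads were few, down to 5 in a library, which limits the precision of the inclusion levels.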

Other observations

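WT libraries were not uniform in 5 of the 9 genes, and the split ran across both WT groups (described after the values were seen). Fhl1 lay between 94.1 and 119 CPM in replicates 1 and 2 of WT Ctr and WT Tnpo3, and between 50.7 and 56.7 CPM in replicates 3 and 4 of both. Fhl2 lay between 1762 and 2445 CPM in the former and between 1089 and 1483 CPM in the latter. Csrp3 (1925 to 2300 against 1347 to 1892 CPM), Rcan1 (88.8 to 138 against 52.8 to 74.2 CPM) and Ankrd23 (18.0 to 26.9 against 14.2 to 17.0 CPM) were divided in the same way. The other 4 were not divided: Ankrd1 (292 to 968 against 453 to 1060 CPM), Xirp1 (156 to 245 against 124 to 169 CPM), Xirp2 (307 to 510 against 318 to 452 CPM) and Tnfrsf12a (38.0 to 79.4 against 24.6 to 41.8 CPM). Rbm20, which is not a member, was divided as well, in the other direction (167 to 196 against 233 to 333 CPM). The labels do not say whether the replicate numbers stand for a batch. How many other genes divide this way was not counted, so 5 of 9 cannot be read as a trait of these members. No cause was tested.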
